A study of Mus musculus with 54 samples.

Results

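The 8 genes described here are the matrix metalloproteinases Mmp9, Mmp12, Mmp13 and Mmp14, the tissue inhibitors of metalloproteinases Timp1, Timp2 and Timp3, and the sheddase Adam17. They were taken by symbol from a table of raw counts, in which all 8 were found among 16632 genes, and all 8 passed the filter on low counts that left 13169 genes for testing. The cells were primary microglia, the brain's own macrophages, from neonatal C57BL/6 mice. They had been shaken off an astrocyte layer after culture in medium with L929 cell supernatant. The question of the design, as its title gives it, is how the microglial transcriptome changes when cells exposed to alpha-synuclein (aSyn, the protein that aggregates in Parkinson's disease) meet cells that were not.

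There were 14 groups. Untreated cells are labelled Untreated_Ctrl (6 libraries). The group labelled aSyn_Donor (4 libraries) is called aSyn-only cells here, since its label names aSyn and no co-culture time. Whether these 2 groups were sorted is not given in the sources used here. Donors had been given 1 µM Atto-488-labelled aSyn for 14 h, and acceptors had been given a violet cell dye. Both populations were then kept together for 15, 30, 60, 150 or 300 min and sorted apart by flow cytometry. A group of each kind is labelled 0 min, and what that time comprised is not given in the sources used here. Donors gave 3, 4, 4, 3, 4 and 4 libraries at 0, 15, 30, 60, 150 and 300 min, and acceptors gave 3, 4, 4, 4, 4 and 3. Each title carries a replicate number from 1 to 4, called number 1 to number 4 below. Same-numbered libraries have the same passage label, 3 for number 1, 1 for number 2 and 2 for numbers 3 and 4. Number 4 has a separate run of facility numbers and is missing from both 0 min groups. The labels do not say whether the numbers are separate cultures of separate animals, so p-values measure the spread between these samples. The 2 pairs of same-numbered untreated libraries were summed, which left 4 untreated samples and 52 samples in all.

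Totals of the 54 libraries lay between 7807389 and 15537493 counts, with a median of 13036175.5. The ribosomal RNA precursor Rn45s took 13.4 to 22.3% of counts in number 4 and 1.42 to 13.5% in the other numbers. All 8 microglial markers examined had counts in all 52 samples, with medians of 1517 CPM for Csf1r and 1502 CPM for C1qa, but only 5.65 CPM for P2ry12 and 4.71 CPM for Tmem119, markers of microglia in the intact brain. CPM are counts divided by the TMM-scaled library total, on the usual scale. The libraries hold reads from the 3′ ends of transcripts, so levels are compared between samples for a gene and not between genes.

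Matrix metalloproteinases are zinc-dependent proteases that are made as inactive proenzymes and cut matrix proteins, cytokines and surface proteins. TIMPs bind the active enzymes and block them, and the ratio of protease to inhibitor is commonly taken as a gauge of pericellular proteolysis. Mmp9 encodes gelatinase B, Mmp12 macrophage elastase and Mmp13 collagenase 3, all secreted, whereas Mmp14 encodes a membrane-anchored enzyme that works with TIMP2 to activate pro-MMP2. ADAM17 releases tumour necrosis factor and its receptors from the cell surface and is inhibited by TIMP3. In microglia these genes are studied for barrier opening, for the spread of cytokines and, for Mmp9, for cleavage of amyloid-beta.

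On the mm10 build, Mmp9 lies at chr2:164940780-164955850 and Mmp14 at chr14:54431612-54445364, both on the plus strand. Mmp13 (chr9:7272514-7283331) and Mmp12 (chr9:7344381-7369499) lie on the plus strand of 1 chromosome, where Mmp12 shares 1261 bases with Mmp1b on the opposite strand. Timp1 (chrX:20870166-20874735) lies within Syn1 and Timp3 (chr10:86300372-86349506) within Syn3, each on the opposite strand. Timp2 (chr11:118301069-118355740, minus strand) holds Cep295nl on its own strand, and Adam17 (chr12:21323509-21373632, minus strand) shares 311 bases with Iah1 on the other. The use of strand in the counting is not given in the sources used here. Reads of Mmp12, Timp1, Timp3 and Adam17 might therefore not be told apart from reads of these partners where they overlap. The overlaps are of whole gene spans, and whether exons overlap was not examined. Timp2 and Cep295nl share 10141 bases on 1 strand, where strand would not separate their reads either.

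Promoter windows were found in a RefSeq table (build GRCm38.p6) for 7 of the 8 genes; that of Mmp9 was not analysed here. The 250 bases before the annotated start are shown for Mmp13, Mmp14, Timp2 and the second of 2 Mmp12 starts. The start is RefSeq's, which for Timp2 lies inside the locus given above. With each replicate number's mean subtracted, Mmp13 and Mmp14 ran in parallel over the samples, and Timp2 ran opposite to Mmp13. Of 5 motifs searched on both strands, capitals mark 3: the AP-1 motif TGANTCA, the TATA box TATAAA and the GC box GGGCGG. The other 2 were the NF-kB motif (GGG, any 2 bases, then TTTCC) and the ETS motif AGGAAG.

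Mmp13 promoter (chr9:7272264-7272513, plus strand): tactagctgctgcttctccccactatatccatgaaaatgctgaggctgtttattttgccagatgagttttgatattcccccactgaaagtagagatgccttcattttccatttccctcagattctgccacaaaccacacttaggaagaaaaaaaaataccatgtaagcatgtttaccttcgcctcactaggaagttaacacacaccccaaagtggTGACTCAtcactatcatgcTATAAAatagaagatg

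Mmp12 second start (chr9:7347124-7347373, plus strand): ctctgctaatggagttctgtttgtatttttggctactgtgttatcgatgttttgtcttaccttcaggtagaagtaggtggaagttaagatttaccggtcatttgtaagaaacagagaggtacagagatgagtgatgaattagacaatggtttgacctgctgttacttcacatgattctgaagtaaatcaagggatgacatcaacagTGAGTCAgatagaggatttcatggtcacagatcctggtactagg

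Mmp14 promoter (chr14:54431348-54431597, plus strand): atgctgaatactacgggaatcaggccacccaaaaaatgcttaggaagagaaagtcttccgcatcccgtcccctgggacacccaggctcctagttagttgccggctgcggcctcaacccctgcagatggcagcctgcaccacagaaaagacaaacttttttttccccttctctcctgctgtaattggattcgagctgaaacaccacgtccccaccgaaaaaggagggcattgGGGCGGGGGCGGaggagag

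Timp2 promoter (chr11:118355412-118355661, minus strand): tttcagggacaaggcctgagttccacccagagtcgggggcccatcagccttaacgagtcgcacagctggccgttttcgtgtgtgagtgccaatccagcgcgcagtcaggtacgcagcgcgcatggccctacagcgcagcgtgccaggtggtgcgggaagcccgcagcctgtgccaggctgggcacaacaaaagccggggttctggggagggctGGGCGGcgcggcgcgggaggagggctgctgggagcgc

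The Mmp13 window held an AP-1 match beginning at position -35 from the start and a TATA box at -16. The second Mmp12 window held an AP-1 match at -44, and the window of the first Mmp12 start, nearer the gene start given above, held none of these 3 motifs and 1 ETS match, at -87. The Mmp14 and Timp2 windows held GC boxes, at -19 and -13 in Mmp14 and at -37 in Timp2, and neither held an AP-1 or TATA match. Of 32851 mouse promoter windows of the same length, 6.75% held the AP-1 motif, 12.4% the TATA box and 32.7% the GC box. The NF-kB motif, in 1.41% of all windows, had 0 matches in the 8 windows of these genes. The ETS motif, in 29.5% of all windows, was at -109 and -62 in Mmp13 and at -209 in Mmp14, and was also found in the Timp1, Timp3 and Adam17 windows. These matches describe letters only.

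In aSyn-only cells the 4 metalloproteinase genes were higher than in untreated cells in most replicate numbers: Mmp9, Mmp13 and Mmp14 in 4 of 4 and Mmp12 in 3 of 4. The inhibitor genes showed no common direction, with Timp1 higher in 3 of 4 numbers, and Timp2 and Timp3 each lower in 3 of 4. The edgeR quasi-likelihood fit without a replicate term called 0 of 8 members at a Benjamini-Hochberg adjusted p under 0.05, against 2.5% of all genes tested. In that fit 2 members, Mmp13 and Mmp14, had an unadjusted p under 0.05, and DESeq2 called 1, Mmp13. Levels differed strongly between the numbers, and same-numbered samples deviated together, so the fit with the replicate number as a block is given beside it. The blocked fit called 4 of 8 members, all higher, where 19.2% of all genes were called in either direction and 8.95% were called higher.

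**Figure D1:**
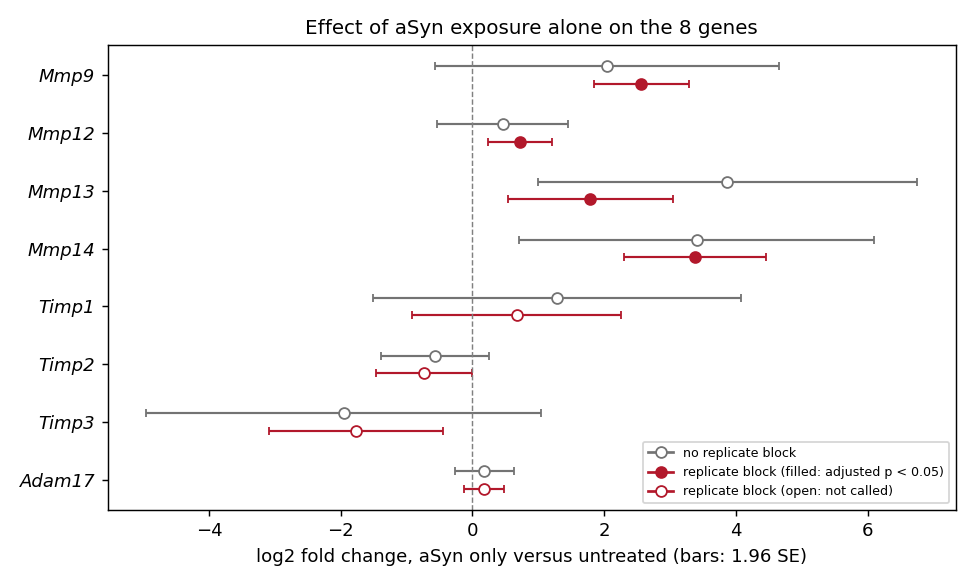
Log2 fold change of each of the 8 genes in aSyn-only against untreated cells, with bars for the 95% interval, from the fit without (grey) and with (red) the replicate block. Filled points mark the 4 genes called with the block, Mmp9, Mmp12, Mmp13 and Mmp14, whose red bars lie above 0. The grey bars of Mmp9 and Mmp12 cross 0.

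Mmp9 in untreated cells was at 5.15, 2.83, 62.5 and 7.69 CPM in numbers 1 to 4, and in aSyn-only cells at 68.2, 20.1, 196 and 36.4 CPM. Number 3 was the highest in both groups and its untreated level lay above the aSyn-only level of numbers 2 and 4, so the groups overlapped although every number was higher with aSyn. Within a number the ratio of aSyn-only to untreated CPM was 13.3, 7.09, 3.13 and 4.73. The summed untreated libraries of number 4 had 2.99 and 12.03 CPM of Mmp9 each, so the last ratio depends on how they are combined. The log2 fold change of Mmp9 was 2.05 ± 1.33 (SE) without the block (edgeR adjusted p = 0.448) and 2.57 ± 0.37 with it (edgeR adjusted p = 3.69e-06). Without number 3 the unblocked fit called Mmp9, with a log2 fold change of 3.00 and an edgeR adjusted p of 0.0296.

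Mmp14 rose with the block by the largest log2 fold change of the 8 genes. Its untreated levels were 1.21, 2.36, 29.3 and 6.56 CPM, from 12 to 342 counts, and its aSyn-only levels were 26.7, 17.2, 75.9 and 294 CPM. The untreated sample of number 3 exceeded the aSyn-only samples of numbers 1 and 2, and number 4 was the highest with aSyn. Ratios within a number were 22.1, 7.30, 2.59 and 44.9. The log2 fold change was 3.41 ± 1.38 without the block (edgeR adjusted p = 0.183) and 3.38 ± 0.55 with it (edgeR adjusted p = 3.1e-05). With the block, Mmp9 and Mmp14 were called whichever 1 of the 4 numbers was left out. In a blocked fit with only the groups compared, Mmp9 kept its call (edgeR adjusted p = 0.0249), and Mmp14, Mmp12 and Mmp13 did not (edgeR adjusted p = 0.067, 0.172 and 0.282). Without number 4 Mmp14 had a log2 change of 2.55 (edgeR adjusted p = 0.000634).

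Mmp13 was at 33.2, 101, 25.4 and 38.8 CPM in untreated cells and at 164, 107, 45.3 and 2589 CPM in aSyn-only cells. Number 4 with aSyn stood far above all other samples, the untreated sample of number 2 exceeded the aSyn-only sample of number 3, and number 2 differed little between the groups. Ratios within a number were 4.94, 1.06, 1.79 and 66.7. The log2 fold change was 3.87 ± 1.47 without the block (edgeR adjusted p = 0.151) and 1.79 ± 0.64 with it (edgeR adjusted p = 0.0434). That size rested on number 4: without it the log2 fold change was 0.99 without the block (edgeR adjusted p = 0.593) and 0.96 with it (edgeR adjusted p = 0.0581). The blocked call was also lost without number 1 (log2 fold change 1.65) or number 3 (2.28), at edgeR adjusted p of 0.215 and 0.0641, and held without number 2 (2.60, edgeR adjusted p = 0.033).

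Mmp12 was at 312, 100.5, 243.7 and 840 CPM in untreated cells and at 536, 291, 525 and 703 CPM in aSyn-only cells. Numbers 1 to 3 were higher with aSyn, by ratios of 1.72, 2.90 and 2.15, and number 4 was lower, at a ratio of 0.837, so the groups overlapped. The log2 fold change was 0.46 ± 0.50 without the block (edgeR adjusted p = 0.694) and 0.72 ± 0.25 with it (edgeR adjusted p = 0.034). Leaving out number 4 raised the blocked value to 1.12 (edgeR adjusted p = 0.00375). Leaving out number 1, 2 or 3 ended the call, with blocked log2 fold changes of 0.72, 0.60 and 0.56 and edgeR adjusted p of 0.146, 0.162 and 0.0994.

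**Figure D2:**
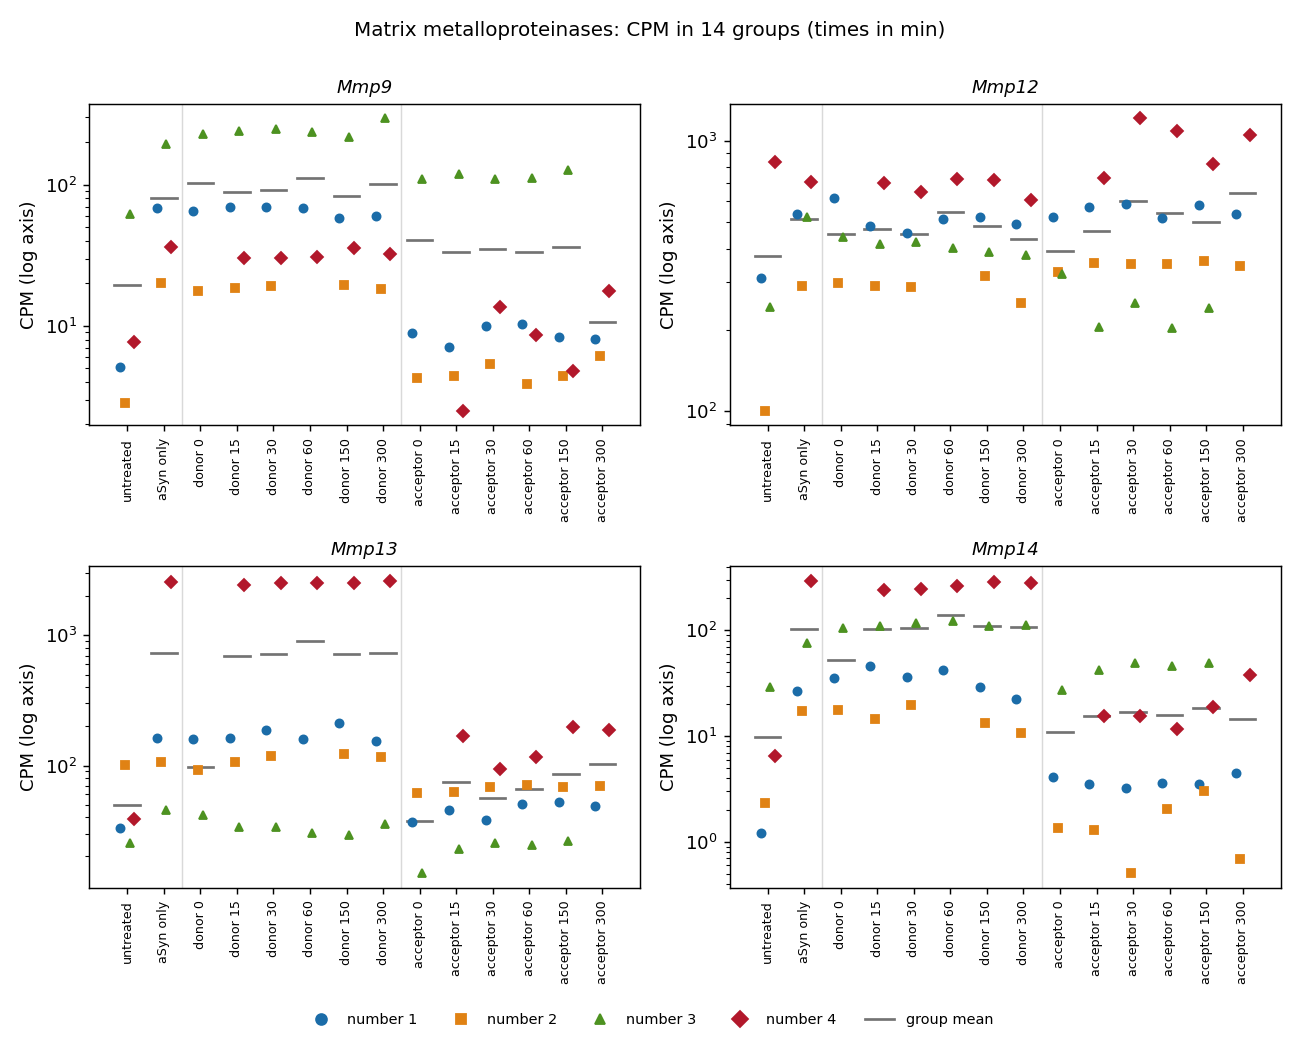
CPM (log axes) of the 4 metalloproteinase genes in each of the 14 groups, 1 point per sample, with the shape and colour of a point giving the replicate number and a grey bar the group mean. Mmp9 and Mmp14 of each number lie higher in aSyn-only cells and donors than in that number's untreated cells and acceptors, and Mmp13 of number 4 stands at 2455 to 2634 CPM in donors.

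Among the inhibitors, Timp2, which blocks secreted metalloproteinases and also takes part in activating pro-MMP2, had 675, 565, 615 and 879 CPM in untreated and 690, 464, 524 and 161 CPM in aSyn-only cells. Number 4 was the highest of the untreated samples and the lowest of the aSyn-only samples, with a ratio of 0.183. The ratios of the other numbers were 1.02, 0.821 and 0.853. A sum of 4 border-macrophage markers, mainly Mrc1, was 234.4, 140, 163 and 164 CPM in untreated and 205, 77.04, 91.5 and 9.78 CPM in aSyn-only cells, lower in all 4 numbers. Timp2 and this sum had a Spearman's rho of 0.79 and a Pearson's r of 0.96 on the log2 scale over 52 samples that share numbers and groups, given as a description. Mrc1 had a median of 127 CPM over these samples. Cd163 and Lyve1 were at 0 in 42 and 29 of the 52, and F13a1 had a median of 0.47 CPM. The sum thus follows Mrc1 and does not by itself show that border macrophages were present. The part of such cells in the Timp2 values was not tested. Timp2 did not pass the test, with a log2 fold change of -0.57 ± 0.42 without the block and -0.73 ± 0.37 with it (edgeR adjusted p = 0.511 and 0.164).

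Timp1, an inhibitor often induced in inflamed tissue, was near the limit of detection outside number 4. It had 0.505, 0.0436, 1.11 and 2.22 CPM in untreated cells, from 1 to 59 counts, and 0.147, 0.142, 1.43 and 7.94 CPM in aSyn-only cells, from 2 to 91 counts. The groups overlapped, and the log2 fold change was 1.28 ± 1.43 without and 0.67 ± 0.81 with the block (edgeR adjusted p = 0.697 and 0.605).

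Timp3, which binds the matrix and also inhibits ADAM17, had 0.202, 0, 7.03 and 11.7 CPM in untreated cells and 0, 0.0711, 0.954 and 3.93 CPM in aSyn-only cells. Only numbers 3 and 4 held more than 2 counts in a sample of these groups, and in both the aSyn-only sample was lower, at ratios of 0.136 and 0.335. The log2 fold change was -1.95 ± 1.53 without and -1.76 ± 0.67 with the block (edgeR adjusted p = 0.547 and 0.0598). Markers of astrocytes moved with Timp3. Their sum over 8 genes was 77.6 and 139 CPM in the untreated samples of numbers 3 and 4 and 16.7 and 29.3 CPM in the aSyn-only ones, against 11.3 and 18.8 CPM (untreated) and 13.9 and 11.2 CPM (aSyn-only) in numbers 1 and 2. Of the 8 astrocyte markers, 5 were called lower with aSyn in the blocked fit and 0 in the unblocked one. Of all 13169 genes tested, 1346 were lower in the blocked fit and 118 in the unblocked one. A sum over 7 fibroblast and meningeal genes was 40.9 and 38.8 CPM in untreated and 10.7 and 13.01 CPM in aSyn-only samples of numbers 3 and 4. Of these genes Pdgfra reached the highest level, 30.2 CPM. Its unblocked log2 fold change with aSyn was -3.21, and those of Col1a1, Col1a2 and Col3a1 were also below 0. Dcn and Pdgfrb went the other way, at 1.02 and 0.73, so the sum does not describe every gene of the list. In that fit 0 of 6 tested genes were called, against 2.5% of all genes. Among the defining markers, Aqp4 was at 0 in 27 and Dcn in 27 of the 52 samples. Over those 52 samples Timp3 correlated with the astrocyte sum (Spearman's rho 0.72) and with the fibroblast sum (0.89), and less with the oligodendrocyte sum (0.20). These samples share numbers and groups, so the values are a description. In bulk RNA, fewer cells of a type and less RNA per cell cannot be told apart, and the part of these cells in the Timp3 values was not tested.

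**Figure D3:**
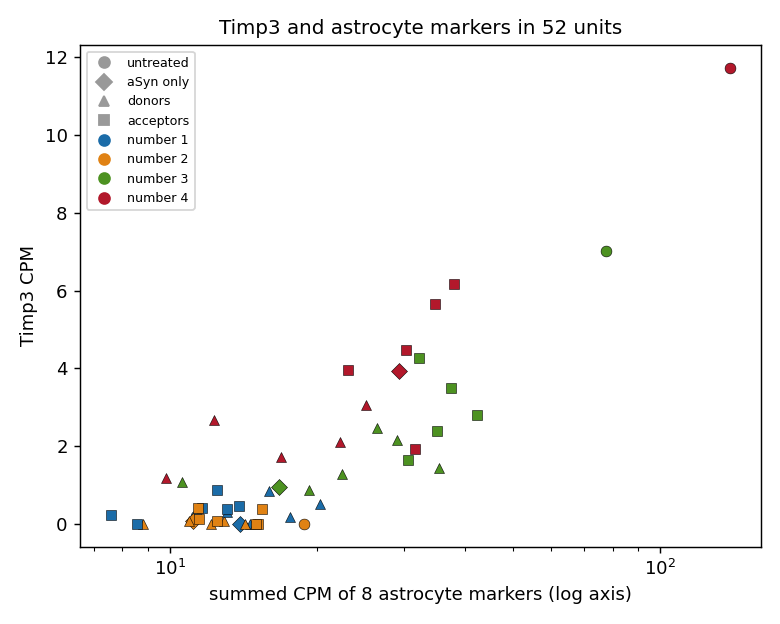
Timp3 CPM against the summed CPM of 8 astrocyte markers (log axis) in 52 samples, with shape for the kind of cell and colour for the replicate number. The untreated samples of numbers 3 and 4, at 7.03 and 11.7 CPM of Timp3, lie at the far right, with marker sums of 77.6 and 139 CPM.

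Adam17 was nearly level. It had 185, 157, 206 and 141 CPM in untreated and 234.2, 152, 194 and 199.6 CPM in aSyn-only cells, higher in 2 numbers and lower in 2, and the groups overlapped. Its log2 fold change was 0.18 ± 0.23 without the block, with a 95% interval from -0.27 to 0.63, and 0.18 ± 0.15 with it, with an interval from -0.12 to 0.48 (edgeR adjusted p = 0.74 and 0.449).

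**Figure D4:**
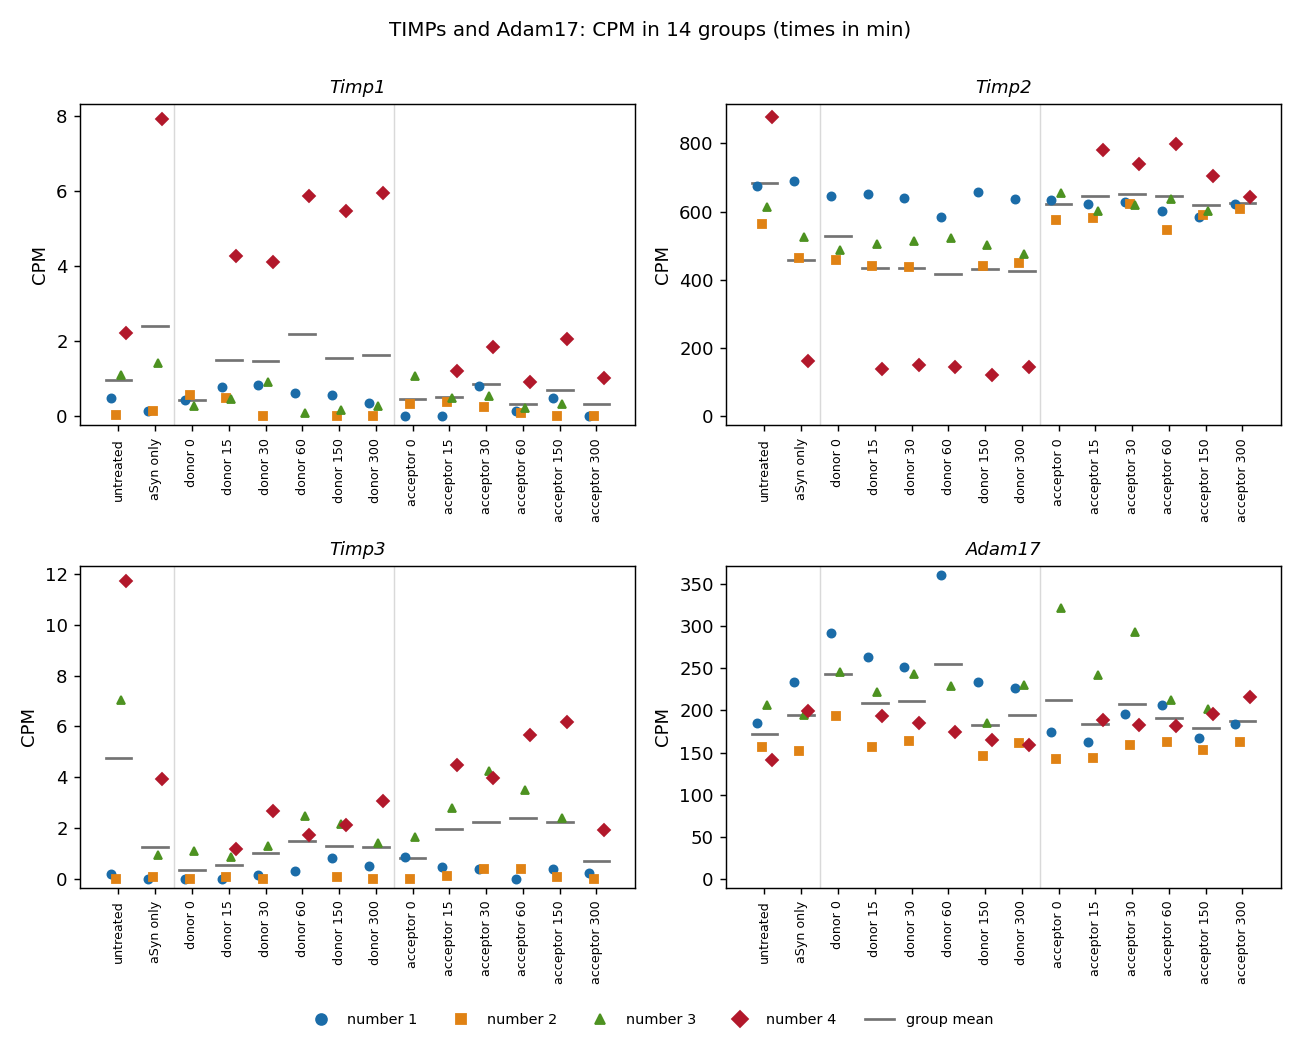
CPM (linear axes) of Timp1, Timp2, Timp3 and Adam17 in each of the 14 groups, 1 point per sample, with shape and colour for the replicate number and a grey bar for the group mean. Timp2 of number 4 stands at 122 to 152 CPM in donors and at 642 to 798 CPM in acceptors, while Adam17 lies between 141 and 361 CPM.

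Between donors and acceptors, 3 metalloproteinase genes had higher levels in donors. Mmp9, Mmp13 and Mmp14 were higher in donors than in same-numbered acceptors in 21 of 21 pairs over the 6 times. Timp2 was lower in donors in 16 of 21 pairs. The pairs come from the same few replicate numbers at successive times and are not independent. The unblocked edgeR fit called 0 of 8 members at each time, where 0.251, 0.888, 0.805, 0.418, 0.167 and 0.0304% of all genes were called at 0, 15, 30, 60, 150 and 300 min. In that fit 7 member values over the 6 times had an unadjusted p under 0.05, and DESeq2 without the block called 0. With the block, Mmp9 and Mmp14 were called higher in donors at all 6 times and Mmp13 at 30 min. With the block, 4.28, 9.57, 10.8, 6.7, 5.19 and 1.38% of all genes were called in either direction, and 2.68, 5, 5.5, 3.62, 2.95 and 0.957% higher in donors.

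In donors of number 1, Mmp9 was at 65.6, 69.4, 69.5, 68.1, 58.3 and 59.8 CPM over the 6 times, and in its acceptors at 8.83, 7.14, 9.92, 10.3, 8.31 and 8.13 CPM. In number 2 the donors had 17.6, 18.5, 19.2, 19.5 and 18.3 CPM, without a sample at 60 min, and the acceptors 4.27, 4.39, 5.32, 3.89, 4.38 and 6.15 CPM. In both numbers each donor value lay above each acceptor value. In number 3 the donors had 227.6, 238.8, 247.6, 235.8, 217 and 296 CPM and the acceptors, without a sample at 300 min, 110, 119, 111, 111 and 126 CPM. In number 4, from 15 min on, the donors had 30.4, 30.4, 30.6, 35.8 and 32.1 CPM and the acceptors 2.5, 13.7, 8.60, 4.82 and 17.5 CPM. Acceptors of number 3 thus exceeded donors of every other number, and the donor and acceptor groups overlapped at the times when number 3 was present in both. At 300 min, with no acceptors of number 3, all donors were above all acceptors. Blocked log2 fold changes of Mmp9 were 1.93, 2.21, 1.73, 1.92, 2.01 and 1.57 in time order, with standard errors of 0.36 to 0.42 and edgeR adjusted p between 0.000101 and 0.0315.

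Mmp14 in number 1 was at 35.6, 45.7, 36.4, 41.7, 29.1 and 22.3 CPM in donors and at 4.09, 3.57, 3.24, 3.61, 3.52 and 4.49 CPM in acceptors. In number 2 it was at 17.6, 14.4, 19.7, 13.2 and 10.8 CPM in donors and at 1.37, 1.29, 0.507, 2.03, 3.01 and 0.684 CPM in acceptors, where 8 to 42 counts stood behind each value. Donors of both numbers were above all of their acceptors. In number 3 donors had 104, 110, 117, 122, 109 and 113 CPM and acceptors 27.5, 41.7, 49.2, 46.4 and 49.1 CPM. In number 4 donors had 237.8, 246.5, 259.3, 288 and 282 CPM and acceptors 15.5, 15.4, 11.7, 18.9 and 37.9 CPM. Number 4 had the highest donor values and number 3 the highest acceptor values at each time that both were present. Blocked log2 fold changes of Mmp14 were 2.87, 2.97, 3.02, 2.95, 2.53 and 2.57, with standard errors of 0.52 to 0.64 and edgeR adjusted p between 0.000181 and 0.016. Both genes were called at 15, 30 and 60 min whichever 1 of the 4 numbers was left out. With the block and only the groups compared, neither was called at 60 or 150 min, and Mmp9 was not called at 300 min. Without number 1 both calls at 0 and 300 min and that of Mmp14 at 150 min were lost, and without number 2 both calls at 0 and 300 min.

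Mmp13 in donors was at 160, 163, 189, 160, 214 and 154 CPM in number 1, at 92.6, 106, 118, 123 and 116 CPM in number 2, and at 41.3, 33.4, 34.0, 30.4, 29.2 and 35.6 CPM in number 3. In donors of number 4 it was at 2455, 2532, 2531, 2531 and 2634 CPM. Acceptors had 37.1, 45.3, 38.1, 50.6, 52.7 and 49.1 CPM in number 1, 61.3, 62.6, 68.5, 71, 67.9 and 69.6 CPM in number 2, 14.9, 22.9, 25.3, 24.5 and 26.2 CPM in number 3, and 167, 93.6, 116, 199 and 189 CPM in number 4. Each number had its own level and every donor sample stood above the acceptors of its number. Donor over acceptor ratios ran from 3.14 to 4.96 in number 1, from 1.51 to 1.82 in number 2, from 1.12 to 2.78 in number 3 and from 12.7 to 27.0 in number 4. Blocked log2 fold changes were between 1.42 and 1.92, and the call at 30 min had an edgeR adjusted p of 0.0444. At that time the blocked value without number 4 was 1.18 (edgeR adjusted p = 0.0252), and the call was lost without number 1, 2 or 3. Without number 4 Mmp13 also passed with the block at 0 and 15 min, with log2 fold changes of 1.39 and 1.09 (edgeR adjusted p = 0.00683 and 0.0489). Number 4 has no sample at 0 min, so the call there changed only through the fit shared by all groups.

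**Figure D5:**
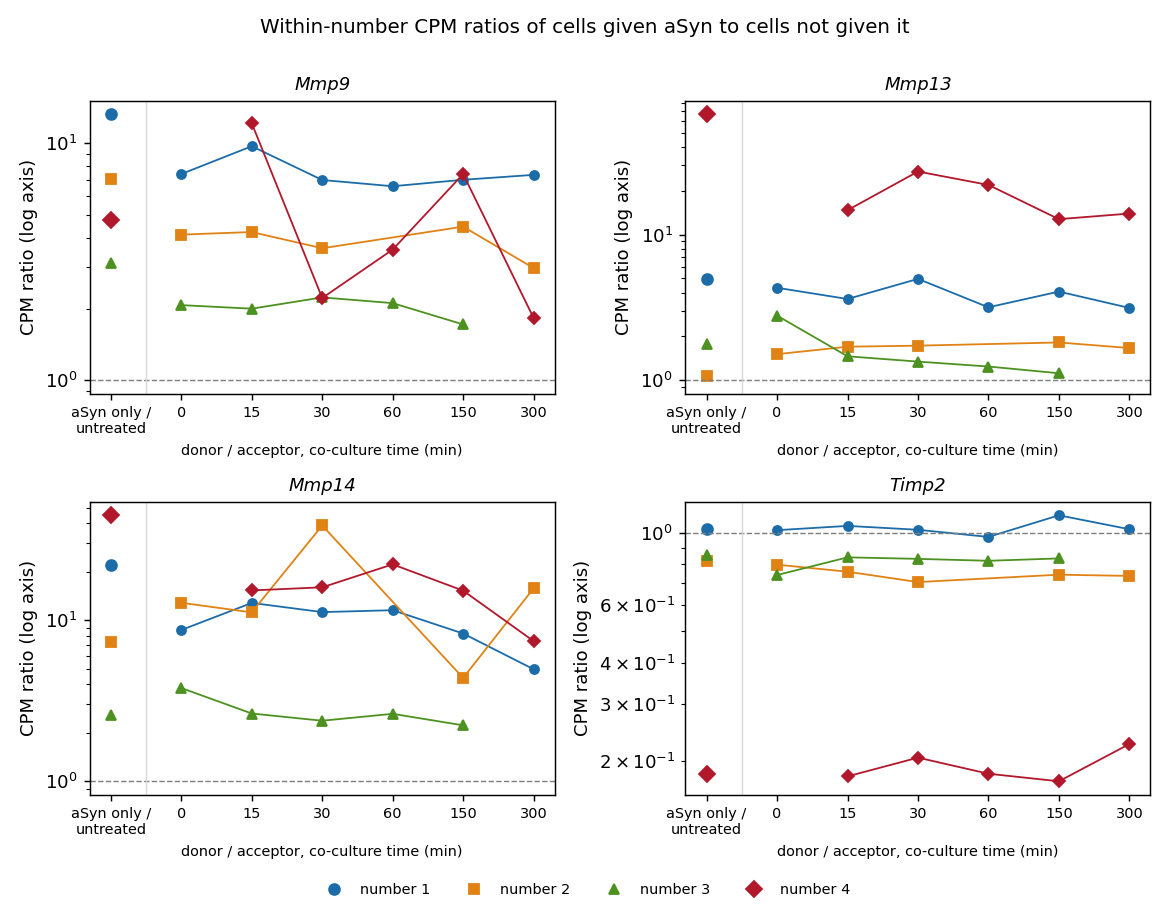
Ratios of CPM within a replicate number (log axes) for Mmp9, Mmp13, Mmp14 and Timp2, with aSyn-only over untreated cells at the left and donors over acceptors by co-culture time to the right. Ratios of the 3 proteases lie above the dashed line at 1 throughout, and Timp2 of number 4 lies between 0.174 and 0.226 in co-culture.

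Timp2 in acceptors was at 583 to 634 CPM in number 1, 546 to 621 in number 2, 601 to 655 in number 3 and 642 to 798 in number 4. In donors it was at 583 to 659, 438 to 459, 475 to 523 and 122 to 152 CPM. Donors were below all acceptors of their number in numbers 2, 3 and 4, and overlapped them in number 1. In number 4 the ratio of donors to acceptors was 0.174 to 0.226, against 0.706 to 0.840 in numbers 2 and 3. Blocked log2 fold changes were -0.25 to -0.83 and did not pass (edgeR adjusted p of 0.209 to 0.812).

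Other cell-type genes also differed in number 4. The microglial marker sum was 1931 to 2219 CPM in its donors and 3169 to 3780 CPM in its acceptors. The sum of 4 border-macrophage markers, mainly Mrc1, was 9.12 to 10.9 CPM in these donors and 105 to 134 CPM in these acceptors. Of 8 neutrophil markers only S100a8 and Camp were in the table, and their sum was 4.76 to 9.40 CPM in donors and 0.405 to 1.25 CPM in acceptors of number 4. Between untreated and aSyn-only cells of number 4, the microglial sum was 3633 and 2157 CPM and the neutrophil sum 0.189 and 7.68 CPM. Over 52 samples Mrc1 was the gene whose pattern was most like that of Timp2 (Pearson's r of log2 CPM 0.98, each number's mean subtracted). The part of other cells in the values of number 4 was not tested.

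Timp1 was highest in number 4 at each time, at 4.13 to 5.95 CPM in donors and 0.925 to 2.05 CPM in acceptors. Numbers 1 to 3 reached at most 0.924 CPM in donors and 1.09 CPM in acceptors, and several of those samples had 0 counts. Timp3 in numbers 3 and 4 was at 0.878 to 3.06 CPM in donors and 1.64 to 6.16 CPM in acceptors, and over all numbers it was lower in donors in 15 of 21 pairs. Adam17 in donors lay between 146 and 361 CPM and in acceptors between 142 and 322 CPM, and donors were higher in 12 of 21 pairs. Donors were higher in 6 of 6 pairs of number 1, with ratios of 1.23 to 1.74, in 3 of 5 of number 2, in 1 of 5 of number 3, with ratios of 0.761 to 1.08, and in 2 of 5 of number 4. Timp1, Timp3 and Adam17 were called at 0 of 6 times in either fit.

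Mmp12 was called in donors against acceptors at 0 of 6 times in either fit. It was lower in donors in 15 of 21 pairs, and higher in all 5 pairs of number 3, at ratios of 1.36 to 2.03. Acceptors had 522 to 585 CPM in number 1, 327 to 360 in number 2, 203 to 323 in number 3 and 730 to 1215 in number 4, and donors had 456 to 618, 251.2 to 316, 380 to 441 and 606 to 722 CPM. Untreated cells of these numbers had 312, 100.5, 243.7 and 840 CPM, so acceptors of numbers 1 and 2 were above their untreated sample at all 6 times. Against untreated cells, acceptors had blocked Mmp12 log2 fold changes of 0.61, 0.50, 0.76, 0.62, 0.60 and 0.80 in time order. All 6 had an unadjusted p under 0.05, from 0.00352 to 0.0473, and none passed adjustment (edgeR adjusted p of 0.0719 to 0.289). Without number 4 the value at 30 min was 0.89 and passed with the block (edgeR adjusted p = 0.0418).

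Within donors and within acceptors, no member was called for a change with co-culture in the edgeR fits of all 14 groups with all 4 numbers. Against aSyn-only cells, donors had 0 of 8 members called at each of the 6 times by edgeR, with or without the block, and 0 had an unadjusted p under 0.05. Of all genes, 0.0304% were called at 300 min without the block and 0.304% with it, and 0% at the other times. Against untreated cells, acceptors also had 0 of 8 called at each time in both fits, where 0, 0, 0.114, 0.0683, 0.137 and 0% of all genes were called in time order without the block and 0.995, 2.25, 3.6, 4, 4.78 and 0.623% with it. Without the block 0 members, and with it 1, 1, 2, 1, 1 and 4 members in time order, had an unadjusted p under 0.05. DESeq2 without the block called 0 in both comparisons, and with it 1, Mmp12 in acceptors at 30 min (DESeq2 adjusted p = 0.044). With the block and only the groups compared, edgeR called Mmp9 higher in acceptors at 30 min (log2 fold change 0.87, edgeR adjusted p = 0.022). That fit also called Mmp14 and Adam17 higher in donors at 0 min than in aSyn-only cells. Their log2 fold changes there were both 0.34 (edgeR adjusted p = 0.0108 and 0.000214). The 6 comparisons of a kind share their control samples and are not independent.

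Mmp9 in acceptors was above its untreated sample in 20 of 22 same-numbered pairs, and the blocked log2 fold changes were 0.32 to 0.97 (edgeR adjusted p of 0.207 to 0.72). For Mmp14 the pairs split 16 to 6 and the values were 0.47 to 0.84, and for Mmp13 they split 12 to 10 and the values were -0.19 to 0.08. Intervals were wide: that of Mmp14 at 150 min ran from -0.23 to 1.92. Timp2 in donors was below its aSyn-only sample in 22 of 22 pairs, though by little in most. F tests over the 6 times called 0 members in donors and 0 in acceptors in both fits, and in neither fit was an unadjusted p under 0.05; they called 0.0607 and 0.00759% of all genes without the block and 0.577 and 0.137% with it. The difference between the co-culture change of donors and that of acceptors was called for 0 members at each time in both fits, where 0.0152% of all genes were called at 150 min, and 0% at the other times, without the block, and 0, 0.0152, 0.038, 0.364, 0.957 and 0.737% with it. That difference had an unadjusted p under 0.05 for 0 member values without the block, and with it for 0, 0, 1, 1, 1 and 2 members in time order.

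Taken alone, replicate number carried more of the spread of these genes than group did, except for Timp2. On the log2(CPM + 0.5) scale, number accounted for 65.3% of the sum of squares of Mmp9 and group for 34.7%. The shares for number and group were each taken separately, and some groups lack a number. They are therefore not a split of the whole, and no remainder was computed. For Mmp14 the shares were 50.9 and 47.5%, for Mmp13 58.6 and 26%, and for Mmp12 69.9 and 11.6%. Timp3 had the largest share for number, 79.5%, and Timp2 the smallest, 25.7%, with 29.2% for group. The numbers also ranked differently by gene: number 3 was highest for Mmp9 in all groups that held it, and number 4 was highest for Timp1 in all groups that held it.

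The correlations in this paragraph were taken on log2 CPM after the mean of each replicate number was subtracted, and leave out differences between those means. Over the 52 samples the nearest parallels were Clec4a2 and Slamf8 for Mmp9 (Pearson's r 0.92 for both). Those of Mmp13 were Scimp and Slamf7 (0.97 and 0.96), and those of Mmp14 were H2-M2 and Itgal (0.97 and 0.96). Timp2 was matched by Mrc1 and Trf (both 0.98). For the others the best matches were weaker: S100a10 for Mmp12 (0.74), Bri3 for Adam17 (0.77), Nr2f1 for Timp3 (0.69) and Pdgfrb for Timp1 (0.58). Among the members, Mmp9 and Mmp14 had an r of 0.90, Mmp13 and Mmp14 0.85, and Mmp13 and Timp2 -0.87. The last value includes number 4, where donor over acceptor ratios were 12.7 to 27.0 for Mmp13 and 0.174 to 0.226 for Timp2. In number 1 they were 3.14 to 4.96 and 0.970 to 1.13, with Timp2 higher in donors in 5 of 6 pairs. The r without number 4 was not computed. The samples share numbers and groups, so these values describe the pattern only.

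The other genes of the family were read from lists. Of 19 other metalloproteinases, 15 were in the table and 13 were tested, and 1, Mmp19, rose in aSyn-only against untreated cells without the block, while the list's median log2 fold change was 1.07 against -0.04 over all genes. Of the 13169 genes tested, 211 were higher and 118 lower without the block, and 1178 higher (8.95%) and 1346 lower with it, 19.2% in either direction. Mmp19, a secreted protease, was at 3.43, 7.28, 2.91 and 10.2 CPM in untreated and 17.0, 21.3, 28.6 and 15.3 CPM in aSyn-only cells. The groups did not overlap, and the log2 fold change was 1.76 ± 0.44 (edgeR adjusted p = 0.0196). Mmp8, the neutrophil collagenase, had 1.41, 1.22, 0.34 and 2.15 CPM in untreated and 4.79, 4.69, 1.51 and 55.1 CPM in aSyn-only cells. It passed with the block, at a log2 change of 2.88 ± 0.56 (edgeR adjusted p = 0.000315), and not without it (edgeR adjusted p = 0.157). The blocked fit called 3 genes of this list higher (Mmp8, Mmp19 and Mmp25) and 3 lower (Mmp11, Mmp15 and Mmp24), of which Mmp11, Mmp15, Mmp24 and Mmp25 are named after their values were seen. In donors against acceptors, the blocked fit called Mmp19 higher at all times but 300 min and Mmp8 at all times but 0 min.

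Of 3 other inhibitors, 2 were tested; Timp4 was lower with the block only, by a log2 change of -2.89 ± 0.84 (edgeR adjusted p = 0.013), at 0.10, 0.35, 4.46 and 5.88 CPM in untreated and 0.07, 0, 0.24 and 0.87 CPM in aSyn-only cells. Its higher values were in the untreated samples of numbers 3 and 4, where the astrocyte sums of 77.6 and 139 CPM and the fibroblast sums of 40.9 and 38.8 CPM were also the highest of these 8 samples; their part in the Timp4 values was not tested. Of 12 tested ADAM and ADAMTS proteases, 0 were called without the block by edgeR and 3 were lower with it, against 2.5% of all genes called without it and 1346 of 13169 lower with it. Adam8 had 1280, 1272, 1393 and 1180 CPM in untreated and 1356, 1562, 1721 and 1145 CPM in aSyn-only cells and passed in neither fit. Adam15 was at 157, 167, 173 and 215 CPM in untreated and 141, 109, 141 and 164 CPM in aSyn-only cells, and did not pass either (edgeR adjusted p = 0.246, and 0.0578 with the block). Of 6 tested genes for ADAM17 trafficking and propeptide removal, 0 were called without the block, and 1 was higher and 1 lower with it. The higher one was Furin, a convertase that removes propeptides, at 64.4, 53.2, 73 and 82.5 CPM in untreated and 83.9, 66.9, 105 and 118 CPM in aSyn-only cells (blocked log2 fold change 0.44, edgeR adjusted p = 0.0202).

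Of 16 tested ADAM17 substrates, 2 rose in aSyn-only cells without the block and 0 fell, against 211 and 118 of all 13169 genes. Tnfrsf1b, which encodes a tumour necrosis factor receptor that ADAM17 sheds, was at 309, 448, 242.9 and 212 CPM in untreated and 681, 906, 714 and 1372 CPM in aSyn-only cells. All 4 aSyn-only samples were above all untreated ones, with a log2 change of 1.60 ± 0.28 (edgeR adjusted p = 0.00105). Icam1, an adhesion molecule, was at 42.7, 74, 68.2 and 24.9 CPM in untreated and 117, 162, 85.1 and 77.7 CPM in aSyn-only cells, which did not overlap. It rose by 1.08 ± 0.30 on the log2 scale (edgeR adjusted p = 0.0384). With the block 4 substrates rose and 1 fell, where 8.95% of all genes were higher and 1346 of 13169 lower. Csf1r, the receptor of the growth factor CSF1, passed in neither fit (blocked log2 fold change 0.06, edgeR adjusted p = 0.871).

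In a list of plasminogen activation, a protease cascade that can activate metalloproteinases, 9 genes were tested in aSyn-only against untreated cells. Without the block 1 was higher and 0 lower, and with it 2 were higher and 1 lower. Anxa2 and S100a10, which together form a plasminogen receptor, passed in neither fit. Their blocked log2 fold changes were 0.15 and 0.62 (edgeR adjusted p = 0.333 and 0.0732). Of 8 tested binding partners and clearance receptors, 1 rose without the block: Cd44, the hyaluronan receptor that docks MMP9 at the cell surface. It was at 250.2, 213, 185 and 256.3 CPM in untreated and 381, 354, 410.5 and 318 CPM in aSyn-only cells, which did not overlap, with a log2 change of 0.69 ± 0.15 (edgeR adjusted p = 0.00565). Of all genes, 211 of 13169 rose in that fit. With the block 3 partners rose and 1 fell, where 8.95% of all genes were higher and 19.2% changed in either direction. The one that fell was Lrp1, an endocytic receptor that clears protease complexes, at 634, 307, 549.6 and 485 CPM in untreated and 381, 227.7, 323 and 205 CPM in aSyn-only cells (blocked log2 fold change -0.82, edgeR adjusted p = 0.000122). One of the 3 was Lcn2, whose product binds MMP9, named after its values were seen. Lcn2 had 0, 0.09, 0.60 and 1.21 CPM in untreated and 0.22, 1.14, 14.4 and 626 CPM in aSyn-only cells, so that number 4 stood far above the rest (blocked log2 fold change 8.15, edgeR adjusted p = 1.56e-09).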

How the data were processed

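RNA was read by QuantSeq 3′ sequencing (forward kit, 50-base single reads), per the labels' protocols. Raw counts by gene symbol for 54 libraries, per the file headers, are what the authors deposited, with a normalized table of the same libraries that was not used. STAR, Partek and DESeq2 and the build mm10 are named in the submitters' processing notes. The smallest total of a listed gene was 10 counts.

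Members and lists were chosen with earlier results of these data known. Groups came from the labels. The same-numbered untreated libraries differed less (chi-square per degree of freedom 10.3 and 12.1) than others (24.2 to 288) and were summed. Counts were fitted with edgeR 4.0.16 (TMM, filterByExpr with a minimum count of 10, quasi-likelihood F test, all 14 groups) in R 4.3.3, and called at a Benjamini-Hochberg adjusted p under 0.05. There were 27 comparisons: 19 between groups, 6 differences of changes and 2 F tests. Replicate numbers come from the titles. Deviations of all 69 same-numbered pairs from their group means correlated (0.199 to 0.764 across genes), so the numbers were taken to pair the samples and blocked values are given where they change a call. DESeq2 1.42.0, other filters, RLE size factors and leave-one-out fits were the alternatives. Intervals are 95% normal intervals and cover the spread between samples. On counts simulated for 13008 genes, aSyn-only against untreated, the unblocked fit called 46, 74 and 78% of genes raised 2-, 4- and 8-fold, with 0 false calls. The blocked fit called 76, 84 and 86%, with 9. Those counts were drawn with a mean for each number, the blocked fit's dispersions and the same fold in all 4 numbers. The blocked fit assumes such counts, and real ratios differed by number, so its higher shares do not vouch for its calls.

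Genes outside the members were named when called in aSyn-only against untreated cells or when among the 2 highest of a list by mean CPM; exceptions are marked. The 2 genes with the highest Pearson's r of log2 CPM (prior count 2), after each replicate number's mean was subtracted, were named as most alike. RefSeq windows and GENCODE vM21 coordinates are of GRCm38, the assembly that mm10 names. A result on 1 gene of the lists is not reported here.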

Additional observations from a re-analysis of the deposited data

Results flagged for a closer look

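Of 80 groups of 4 samples examined over the 8 genes, 18 held a sample whose gap to the nearest other exceeded Dixon's 95% critical value. For normally distributed values chance flags about 1 in 20 groups. Here CPM were used without a log scale, so that rate need not hold. The groups share numbers and are not independent. All 18 samples were the highest of their group, 6 from number 3 and 12 from number 4.

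Mmp9 of number 3 stood apart at 62.5 CPM in untreated cells (the others 2.83 to 7.69), at 296 CPM in donors at 300 min (18.3 to 59.8), and in acceptors at 119, 111, 111 and 126 CPM at 15, 30, 60 and 150 min, where the others had 2.5 to 13.7.

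Mmp13 of number 4 stood apart at 2590 CPM in aSyn-only cells (the others 45.3 to 164), and in donors at 2460, 2530, 2530 and 2630 CPM at 15, 30, 150 and 300 min, where the others had 29.2 to 214.

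Timp1 of number 4 stood apart at 7.94 CPM in aSyn-only cells (the others 0.142 to 1.43), in donors at 4.28, 5.47 and 5.95 CPM at 15, 150 and 300 min (0 to 0.788), and in acceptors at 0.925 CPM at 60 min (0.0811 to 0.223).

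Timp2 of number 4 stood apart at 741 CPM in acceptors at 30 min (the others 618 to 627) and at 704 CPM at 150 min (583 to 602), although its donors had the lowest Timp2 of all.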

How the results depend on the processing

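In aSyn-only against untreated cells, 0 members were called by the unblocked edgeR fit, 1 by DESeq2, 0 to 1 without one replicate number, 4 with the replicate block, 4 with the block in DESeq2, 1 with the block and only the groups compared, and 2 to 3 with the block and without one number. In donors against acceptors, 0 member values were called over the 6 times, 0 to 1 without one number, 13 with the block, 14 with the block in DESeq2, 8 with the block and only the groups compared, and 15 (number 4), 12 (number 3), 8 (number 2) and 7 (number 1) with the block and without one number. In acceptors against untreated cells the count was 0, and 1 with the block in DESeq2, 1 with the block and only the groups compared, and 0 to 1 with the block and without one number (1 without number 4). In donors against aSyn-only cells it was 0, and 2 with the block and only the groups compared. The differences of changes and both F tests gave 0 members under every alternative run. Outside aSyn-only against untreated cells, shares of all genes were taken only for the 2 edgeR fits of all samples, with and without the block. Member counts there under the other alternatives have no such share beside them and cannot be set against the general change in calls.

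Of all genes, 329 were called in aSyn-only against untreated cells. DESeq2 called 592, only the groups compared 35, the untreated libraries kept separate 619, and fits without one number 73 (number 3) to 301. The replicate block called 2524, in DESeq2 2721, in only the groups compared 162, and without number 1, 2, 3 or 4 2099, 1903, 1374 and 1619. The higher share was 211 of 329 without and 1178 of 2524 with the block. No value that passed a test changed direction under an alternative run. The block changed no other call of a member. Blocked fits with DESeq2, with only the groups compared or without number 1, 2 or 3, and totals without TMM, were chosen after seeing the data. The causes were not tested. RLE size factors and totals without TMM moved all 112 group means by less than 1 SD. Depth limits Timp1 and Timp3, with at most 3 counts in many samples.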
